A study of Mus musculus with 4 samples.

Results

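Myosin light chains are the small subunits that wrap around the neck of each myosin heavy chain. Here their genes were followed in newborn mouse hearts with and without the myocardin-related transcription factors MRTFA and MRTFB. The set was chosen by name and holds 9 of the 43346 genes counted: the regulatory light chain genes Myl2, Myl7, Myl9, Myl12a and Myl12b, the essential light chain genes Myl3, Myl4 and Myl6, and Mylk3, which encodes the kinase that phosphorylates the cardiac regulatory chain. All 9 were found in the files and all 9 passed the filter on low counts, which left 16009 genes for testing. RNA sequencing was done on whole hearts taken on the day of birth (P0), with 2 libraries from wild type mice on an ICR strain background and 2 from MRTFA/B double knockout mice on a mixed background. Genotype and strain background therefore cannot be told apart. The labels do not name the alleles, say in which cells they were removed, or say whether the 2 libraries of a group came from separate animals, so p-values speak of the spread among these 4 libraries, part of which may be technical.

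As background, each myosin head carries 1 essential light chain, which stiffens the neck, and 1 regulatory light chain, whose phosphorylation raises the force or the activity of the motor. Ventricular muscle uses Myl2 and Myl3, and atrial muscle uses Myl7 and Myl4, although Myl4 is also made in the ventricle before birth. Smooth muscle and non-muscle cells use Myl9, Myl12a and Myl12b with Myl6. MRTFA and MRTFB lend their activating domains to serum response factor (SRF), which binds a short A- and T-rich element named the CArG box in the promoters of many muscle and cytoskeletal genes.

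Library totals lay between 16175259 counts (double knockout library 2) and 29460641 counts (wild type library 1), and the 9 genes together took 1.01% to 1.36% of them. Levels are given as CPM, read counts scaled to a common library total over the tested genes, with TMM factors for composition. A fold change is a log2 value of double knockout over wild type, with its standard error (SE). Wild type libraries 1 and 2 form the wild type pair and double knockout libraries 1 and 2 the knockout pair, and values are given in that order. The targeted gene Mrtfa was at 9.06 and 11.1 CPM for the wild type pair against 3.35 and 2.26 CPM for the knockout pair. Mrtfb was at 46.9 and 56.8 CPM for the wild type pair against 46.0 and 49.6 CPM for the knockout pair. Mrtfb thus overlapped between the genotypes, and since the labels do not say which stretch of the gene was removed, its level could not be used to check them. Cardiomyocyte markers were abundant, with a summed level over 8 genes of 61910.0 and 57057 CPM for the wild type pair against 48630 and 44729 CPM for the knockout pair, while 5 lung epithelium markers summed to at most 0.494 CPM and 8 skeletal muscle markers to at most 12.5 CPM.

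The promoters come first, because SRF and its partners act there. RefSeq start sites on GRCm38.p6 gave 12 windows for the 9 genes, each with 250 bases before and 50 bases after a start. A perfect CArG box was found in a window of 4 of the 9 genes, Myl9, Myl7, Myl3 and Myl6. Counted by gene, 183 of the 11290 tested genes with any window had such a box. Counted by window, it is in 1.63% of the 32851 windows of all genes. The box reads the same on both strands by its rule, so 1 search covered both. The 3 windows below are shown because these genes stand for the smooth muscle, atrial and ventricular isoforms and differed in the sign or size of their fold change. The sequence runs along the gene's strand, and capitals mark the CArG box.
Myl9, chr2:156775214-156775513, plus strand: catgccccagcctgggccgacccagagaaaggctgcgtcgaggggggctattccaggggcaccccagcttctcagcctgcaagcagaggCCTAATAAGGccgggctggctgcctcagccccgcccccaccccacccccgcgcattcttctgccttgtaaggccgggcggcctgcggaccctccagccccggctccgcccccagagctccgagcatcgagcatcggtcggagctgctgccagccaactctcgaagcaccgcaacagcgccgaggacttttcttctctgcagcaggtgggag
Myl7, chr11:5898733-5899032, minus strand: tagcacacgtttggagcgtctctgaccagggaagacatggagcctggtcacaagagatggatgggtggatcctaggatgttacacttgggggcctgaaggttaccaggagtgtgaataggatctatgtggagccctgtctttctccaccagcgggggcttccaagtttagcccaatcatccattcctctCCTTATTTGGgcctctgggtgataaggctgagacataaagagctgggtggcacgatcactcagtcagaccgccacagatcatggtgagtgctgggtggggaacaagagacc
Myl3, chr9:110763428-110763727, plus strand: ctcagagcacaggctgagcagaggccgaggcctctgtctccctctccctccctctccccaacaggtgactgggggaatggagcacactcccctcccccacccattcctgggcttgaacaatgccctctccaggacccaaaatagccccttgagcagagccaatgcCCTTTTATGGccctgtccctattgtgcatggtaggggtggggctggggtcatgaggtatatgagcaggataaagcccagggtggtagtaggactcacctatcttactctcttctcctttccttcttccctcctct

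In the Myl9 window the box CCTAATAAGG began 161 bases before the start, and a near-box that differs from the rule at 1 letter, CCTTGTAAGG, began 99 bases before it. The Myl7 box CCTTATTTGG began 61 bases before the start, and the Myl3 box CCTTTTATGG began 85 bases before it. Myl3 also held a near-box, CCAAAATAGC, 115 bases before its start. Myl6 held the box CCTTATATGG in the second of its 2 windows, 50 bases before that start. Allowing 1 other letter, Myl12a (CCCTAAAAGG) and Myl2 (CCATTTTAGT) also had a match, but 21.1% of all windows do. The windows of Myl12b, Myl4 and Mylk3 held neither form. The RefSeq starts of the 2 Myl2 windows lie 7762 and 8227 bases before the gene's start in the GENCODE annotation. Other RefSeq starts lie after the GENCODE start, by 21817 bases for Myl3 and by 5304 and 21021 bases for the 2 Mylk3 windows. For the Myl6 window with the box it is 1136 bases. Boxes found or missing there thus belong to the RefSeq starts. A match is a description of these letters, and none was tested for binding.

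Across the set the genotypes differed most at Myl9. With all 4 libraries 5 genes had a negative and 4 a positive fold change, and their median was -0.08, beside 0.01 over all genes tested, of which 48.7% were negative. In 3 genes, Myl9, Myl2 and Myl3, both double knockout libraries lay below both wild type libraries, as they did in 25.2% of all genes tested. In Myl7 and Mylk3 they lay above, as in 25.8% of all genes. The quasi-likelihood test of edgeR, with Benjamini-Hochberg adjustment over all genes, called 0 of the 9 members, where it called 0.075% of all genes (0.0125% higher and 0.0625% lower). Before adjustment 2 members, Myl9 and Mylk3, had an edgeR p under 0.05, as had 17.3% of all genes. DESeq2 called 1 member, Myl9, as lower, and 3.32% of all genes (1.76% higher and 1.57% lower).

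**Figure D1:**
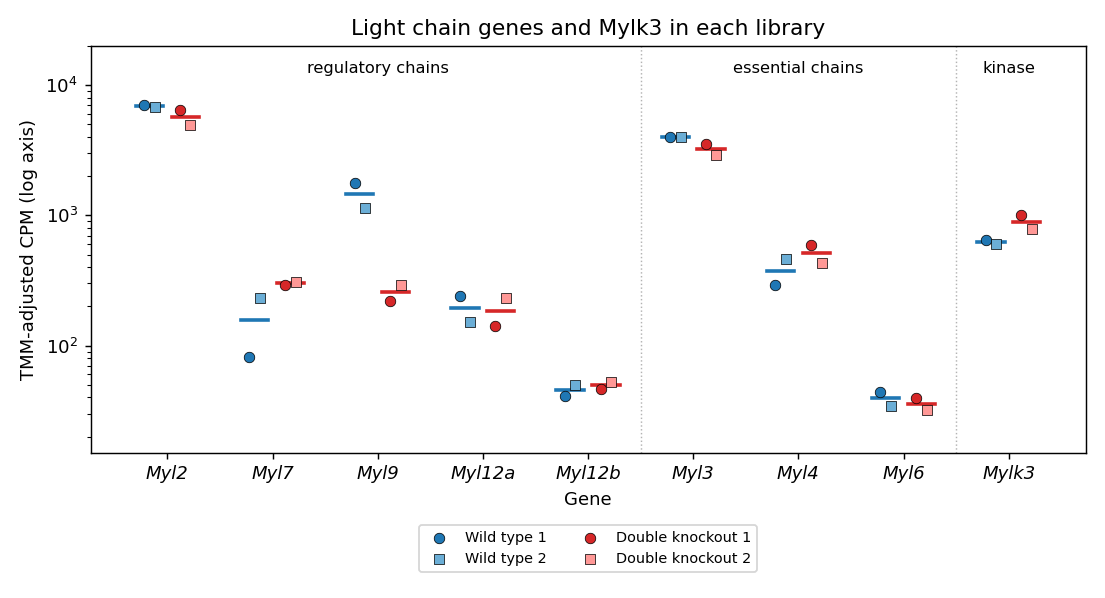
TMM-adjusted CPM of the 9 genes in each of the 4 libraries, on a log axis, with horizontal lines at the mean of the 2 libraries of a genotype (wild type blue, double knockout red). In wild type Myl9 sits at 1137 CPM or more, and in double knockout at 291 CPM or less, and the genotypes overlap for Myl12a, Myl12b, Myl4 and Myl6.

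Myl2 (chromosome 5, 122100951 to 122113472, mm10), the regulatory chain of ventricular muscle, was the most abundant member. It was at 7067 and 6749 CPM for the wild type pair against 6389 and 4932 CPM for the knockout pair. Both double knockout values lay below both wild type values, and double knockout library 2 was the lowest. The fold change was -0.29 (SE 0.16, 95% interval -0.68 to 0.11), with an edgeR adjusted p of 0.413. Without double knockout library 1 it was -0.49 with an edgeR adjusted p of 0.0354, and without double knockout library 2 it was -0.11. With 1 library of a genotype left, here and below, the spread comes from the pair of the other genotype alone and the lone library is assumed to vary like it. Without double knockout library 1 or 2, 2795 and 1364 genes passed, against 12 with all 4 libraries.

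Myl3 (chromosome 9, 110741861 to 110769798), the ventricular essential chain, had nearly the same fold change. It was at 3965 and 3974 CPM for the wild type pair against 3555 and 2902 CPM for the knockout pair, so the groups did not overlap and double knockout library 2 was again the lowest. Its fold change was -0.30 (SE 0.14, 95% interval -0.65 to 0.05; edgeR adjusted p = 0.354). Without double knockout library 1 it was -0.45 (edgeR adjusted p = 0.0447), and without library 2 it was -0.16. Myh6, the alpha heavy chain that these light chains serve in the newborn mouse heart, was at 16361 and 17163 CPM for the wild type pair against 14825 and 12968 CPM for the knockout pair, a fold change of -0.27 (SE 0.13; edgeR adjusted p = 0.364).

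Of the 8 cardiomyocyte markers 6 were on the negative side, and their median fold change was -0.17, beside 0.01 over all genes tested. Over all genes tested, edgeR called 0.075%, 17.3% had an unadjusted edgeR p under 0.05, and DESeq2 called 3.32%. Of the markers none (0) was called by edgeR, 1 had an unadjusted edgeR p under 0.05, and DESeq2 called 1. This was Actc1, the cardiac alpha-actin gene, at 17537 and 12642 CPM for the wild type pair against 6688 and 6282 CPM for the knockout pair. Actc1 alone thus held most of the difference in the summed marker level given above. Tnnt2 and Pln were on the positive side, with fold changes of 0.08 and 0.14. The fold change of Actc1 was -1.22 (SE 0.19), with an adjusted p of 0.121 by edgeR and 1.11e-06 by DESeq2. The part of the cardiomyocyte marker level in the lower Myl2 and Myl3 values was not tested.

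Myl7 (chromosome 11, 5896637 to 5898782), the regulatory chain of atrial muscle, was higher in double knockout, but the wild type libraries were far apart. It was at 82.1 and 231 CPM for the wild type pair against 292 and 309.8 CPM for the knockout pair. Wild type library 1 was low, and wild type library 2 was much nearer to the double knockout libraries than to it. The fold change was 0.94 (SE 0.49, 95% interval -0.33 to 2.22; edgeR adjusted p = 0.398). Leaving out wild type library 1 gave 0.38 and leaving out library 2 gave 1.86, and neither passed the edgeR threshold (adjusted p 0.971 and 0.146). DESeq2 gave 0.94 with an adjusted p of 0.553.

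Myl4 (chromosome 11, 104550663 to 104595753), the essential chain of atrial and fetal ventricular muscle, was at 292 and 459.8 CPM for the wild type pair against 588 and 433 CPM for the knockout pair. The groups overlapped, since wild type library 2 lay above double knockout library 2. Its fold change was 0.44 (SE 0.26, 95% interval -0.22 to 1.102; edgeR adjusted p = 0.443). Wild type library 1 was the lowest for Myl4, as it was for Myl7. Without it the fold change of Myl4 was 0.15, without double knockout library 1 it was 0.20, and without wild type library 2 it was 0.79.

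Other genes of atrial muscle, when summed, were also lower in wild type library 1 and higher in double knockout, though single genes differed. Of 10 atrial genes, none of them a light chain, 9 had a positive fold change and the median was 1.11, beside 0.01 over all genes tested. The list was not uniform: Nr2f1 (0.03), Nr2f2 (0.20) and Kcna5 (-0.03) had small fold changes, and each overlapped between the genotypes. None of the atrial genes was called by edgeR (0 of 10), beside 0.075% of all genes. Before adjustment 5 had an edgeR p under 0.05, beside 17.3% of all genes. DESeq2 called 4 (Nppa, Bmp10, Kcnj3 and Stard10), beside 3.32% of all genes. The summed level of the 10 genes was 364 and 455 CPM for the wild type pair against 825 and 892 CPM for the knockout pair. Sln encodes the calcium pump inhibitor sarcolipin and was called by neither test. It was at 3.84 and 19.2 CPM for the wild type pair against 28.1 and 37.1 CPM for the knockout pair. By contrast Nppa (237 and 221 CPM), Bmp10 (8.85 and 8.20 CPM) and Kcna5 (19.7 and 16.8 CPM) were higher in wild type library 1 than in library 2. Bulk RNA does not tell whether atrial or ventricular cells made the Myl7 and Myl4 RNA. More RNA in each cell and a larger atrial part of the tissue cannot be told apart in it either. The part of the atrial marker level in these results was not tested. Of 8 ventricular genes that are not light chains, 3 were lower and 5 higher, with a median of 0.11. edgeR called 0 of these 8, and 2 had an unadjusted p under 0.05. DESeq2 called 1 lower and 1 higher, beside 1.57% and 1.76% of all genes.

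Myl9 (chromosome 2, 156775420 to 156781658), the regulatory chain of smooth muscle, was lower in both double knockout libraries by more than any other member. It was at 1779 and 1137 CPM for the wild type pair against 220.5 and 291 CPM for the knockout pair. The lower wild type library was still far above the higher double knockout library, and the ratio of the group means was 0.176. The fold change was -2.51 (SE 0.27, 95% interval -3.18 to -1.84), with an unadjusted p of 1.30e-04 and an adjusted p of 0.0957 by edgeR. DESeq2 gave the same fold change (-2.51, SE 0.26) with an adjusted p of 1.22e-18. Without double knockout library 1 or 2 the edgeR adjusted p was 0.0248 and 0.0339, and without wild type library 1 or 2 it was 0.299 and 0.135, each with 1 library left in that genotype. Over 14 alternative settings the fold change stayed between -2.81 and -2.16, and the adjusted p ranged from 1.80e-22 to 0.299. Of the 3907 tested genes with a mean of at least 50 CPM, 2 had a more negative fold change, Lynx1 (-5.22) and the skeletal alpha-actin gene Acta1 (-4.43), which were named after their values were seen.

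**Figure D2:**
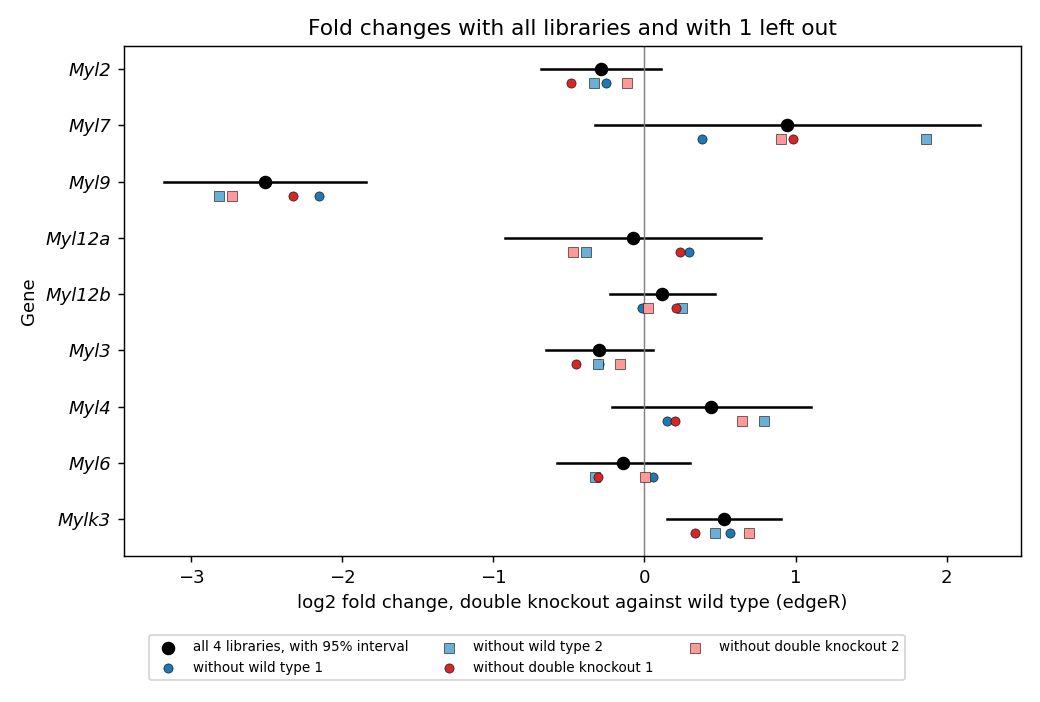
edgeR log2 fold change of each gene with all 4 libraries (black point, line for the 95% interval) and with 1 library left out (coloured points below it). Myl9 stays between -2.81 and -2.16, Myl7 moves from 0.38 to 1.86 with the wild type library left out, and the points of Myl12a, Myl12b and Myl6 fall on both sides of 0.

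Myl12a (chromosome 17, 70993656 to 71002878), a regulatory chain of non-muscle myosin, overlapped between the genotypes. It was at 239.6 and 151 CPM for the wild type pair against 141 and 229.8 CPM for the knockout pair, so 1 library of each genotype was high and the other low. The fold change was -0.08 (SE 0.33, 95% interval -0.93 to 0.77; edgeR adjusted p = 0.929), and leaving out wild type library 1 or double knockout library 2 gave 0.29 and -0.47. Its neighbour Myl12b (chromosome 17, 70973133 to 70990890) was at 41.1 and 49.9 CPM for the wild type pair against 46.3 and 52.5 CPM for the knockout pair, and the groups overlapped. For Myl12b the fold change was 0.12 (SE 0.14, 95% interval -0.23 to 0.47; edgeR adjusted p = 0.710). The transcripts of this pair are 96.6% identical over 555 bases, and for reads that match several places the counting rule was not given in the sources used, so the split between them is uncertain. Myl12a also shares 207 exon bases with Myom1 on the opposite strand.

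Myl6 (chromosome 10, 128490860 to 128494145), the essential chain of smooth muscle and non-muscle myosin, was at 44.3 and 34.2 CPM for the wild type pair against 39.4 and 31.8 CPM for the knockout pair. The groups overlapped, and the fold change was -0.14 (SE 0.18, 95% interval -0.58 to 0.30; edgeR adjusted p = 0.728). Its transcripts match 5 other annotated genes at 95% identity or more over 100 bases or more, among them Gm10080 (99.1% over 438 bases) with 366 to 626 counts per library, beside 520 to 1258 for Myl6. The level of Myl6 therefore need not measure its expression. With that limit, the Myl6 counts did not show the difference of Myl9. Both per kb of exon, the log2 ratio of Myl9 to Myl6 counts was 6.78 and 6.51 in wild type. In double knockout this ratio was 3.94 and 4.65.

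Mylk3 (chromosome 8, 85324303 to 85386345), the cardiac light chain kinase, was higher in both double knockout libraries, but the difference did not pass the adjusted test. It was at 641 and 603 CPM for the wild type pair against 1007 and 784 CPM for the knockout pair, with no overlap, and double knockout library 1 was the highest. This gave a fold change of 0.53 (SE 0.15, 95% interval 0.15 to 0.90), with an unadjusted p of 0.0143 and an adjusted p of 0.193 by edgeR, and 0.087 by DESeq2. It was 0.69 without double knockout library 2 (edgeR adjusted p = 0.00562) and 0.33 without double knockout library 1 (0.101). Its substrate gene Myl2 had a fold change of the opposite sign.

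Levels can be set beside each other only per length, here as CPM per kb of annotated exon. In wild type the order by mean was Myl2 (3542), Myl3 (1942), Myl9 (1255), Myl7 (265), Mylk3 (145), Myl4 (81.0), Myl12a (58.1), Myl12b (16.4) and Myl6 (12.3). The 2 libraries overlapped between the neighbours Myl7 and Mylk3 and between Myl4 and Myl12a. In double knockout Myl7 (510.3) stood above Myl9 (220.3), and Myl9 overlapped Mylk3 (209). With the length of the longest transcript in place of the summed exons, the wild type order was the same, and in double knockout Mylk3 (242) stood above Myl9 (227). Both lengths may be too long for some members. Myl6 had 3187 and 3040 bases by them, while 1 of its annotated transcripts has 665. Annotated transcripts of Myl12a (804 bases) and Myl12b (1001 bases) are also shorter than either length. The order of these low members, and the levels of shares and ratios below, hold only for the lengths used. The heavy chain gene Myh6 was at 2492 CPM per kb in the wild type mean and 2066 in the knockout mean, near Myl2 and Myl3 and far above Myl7 and Myl4. By contrast Myh11, the smooth muscle heavy chain, was at 3.33 and 2.26 CPM per kb, far under Myl9 in both genotypes.

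The make-up of the regulatory pool, the summed counts per kb of the 5 regulatory genes, differed between the genotypes in the share of Myl9. Myl9 made up 28.5% and 20.0% of it in wild type and 4.72% and 7.39% in double knockout. With longest transcript lengths its shares were 16.1%, 11.1%, 2.45% and 3.99% in the same order. Myl2 made up 67.4% and 70.7% in wild type and 81.5% and 74.6% in double knockout, and Myl7 2.59%, 8.0%, 12.3% and 15.5%. In the essential pool Myl3 held 96.2% and 94.7% in wild type and 92.6% and 93.2% in double knockout, and Myl4 3.12%, 4.83%, 6.75% and 6.13%. A share can be larger because another member is smaller, so these shares are not levels. The regulatory pool as a whole held 5380.0 and 4894 CPM per kb in the wild type pair and 4020.2 and 3392 in the knockout pair, and the essential pool at 2017 and 2054 in wild type and 1878 and 1523 in double knockout. Reads of Myl6, Myl12a and Myl12b that were not assigned are missing from these sums.

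**Figure D3:**
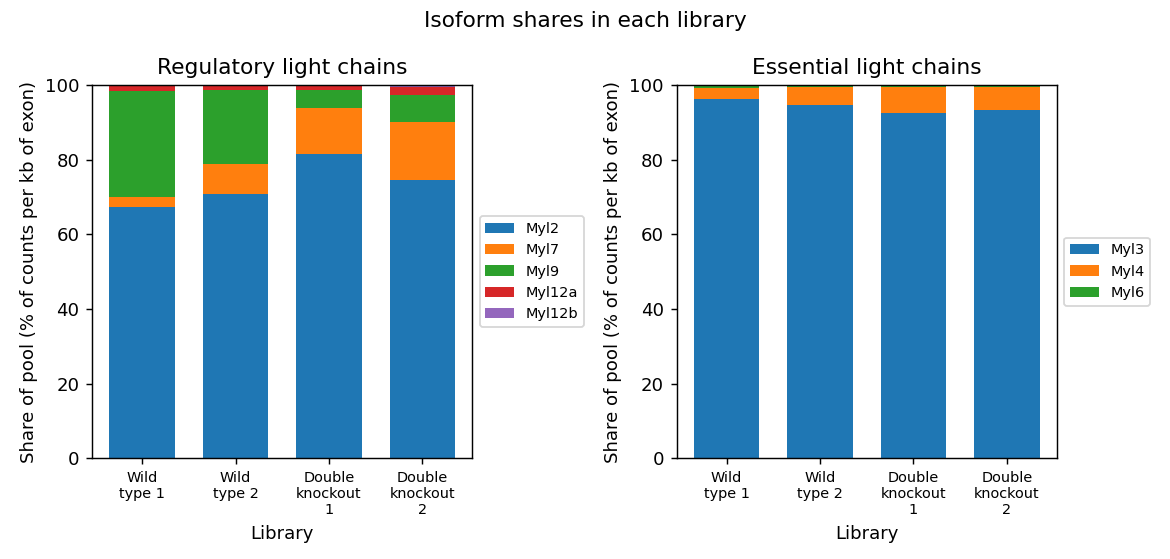
Stacked bars give each isoform's share, in percent of counts per kb of exon, of the regulatory (left) and essential (right) light chain pool in the 4 libraries. Myl9 takes 20.0% or more of the regulatory pool in wild type and 7.39% or less in double knockout, while Myl3 keeps 92.6% or more of the essential pool in all 4 libraries.

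Ratios within a library do not depend on scaling, and 6 were compared by an exact two-sided permutation test over the 4 libraries, in which 2 against 2 cannot go below p = 0.33. The log2 ratio of Myl9 to Myl12a plus Myl12b was 4.06 ± 0.13 in wild type and 1.61 ± 0.12 in double knockout (SD, n = 2; exact p = 0.33, adjusted 0.4), a difference of -2.45 that exceeded the spread between libraries. That of Myl9 to Myl6 differed by -2.35. The atrial to ventricular ratio Myl7 to Myl2 was -4.70 and -3.14 in wild type and -2.73 and -2.27 in double knockout, a difference of 1.43, which became 0.65 or 2.21 when wild type library 1 or 2 was left out. That of Myl4 to Myl3 was -4.95 and -4.29 in wild type and -3.78 and -3.93 in double knockout, a difference of 0.77, which was 0.44 without wild type library 1. Although Myl4 itself overlapped between the genotypes, its ratio to Myl3 did not. Myl6 to Myl3 overlapped (difference 0.17, exact p = 1.0), and the regulatory to the essential pool differed by -0.21. That difference was -0.12 with longest transcript lengths, and -0.13 and -0.29 without wild type library 1 and 2. For the 5 ratios whose groups did not overlap the exact p was 0.33, adjusted 0.4, and 51.1% of all genes tested also had groups that did not overlap.

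Among smooth muscle genes Myl9 stood with Acta2. All 9 smooth muscle markers were on the negative side, with a median fold change of -0.56, where the median over all genes was 0.01. edgeR called 0 of them, and 4 had an unadjusted edgeR p under 0.05, beside 0.075% and 17.3% of all genes. DESeq2 called 3, all lower, where it called 1.57% of all genes lower. These 3 were Acta2 (smooth muscle alpha-actin), Cnn1 (calponin) and Smtn (smoothelin). The summed level of the 9 markers was 4151 and 2606 CPM for the wild type pair against 1451 and 1352 CPM for the knockout pair. Acta2 held the most of it in wild type (2962 and 1468 CPM), and Des (desmin, 639 and 685 CPM) held more than Acta2 (535 and 439 CPM) in double knockout. Fold changes were -2.18 (SE 0.37) for Acta2, -1.47 (SE 0.27) for Cnn1 and -0.75 (SE 0.11) for Smtn, with edgeR adjusted p of 0.141, 0.141 and 0.120. Smaller fold changes were those of Tagln (transgelin, -0.35), Myh11 (-0.56) and Mylk, the smooth muscle light chain kinase (-0.37), which had edgeR adjusted p of 0.321, 0.312 and 0.284. Of 8 pericyte genes 7 were lower, with a median of -0.15 and 0 called by edgeR or DESeq2 (2 at an unadjusted edgeR p under 0.05). Per kb of exon, wild type and knockout means were 1255 and 220 CPM for Myl9 and 1009 and 222 for Acta2. Those of Des were 205 and 176, those of Cnn1 16.5 and 5.90, and those of Mylk 3.11 and 2.41. Which cells of the heart, smooth muscle or cardiomyocytes, made the RNA of Myl9 and of the listed markers, Acta2 and Des among them, was not tested. Fewer cells of a type and less RNA per cell cannot be told apart in bulk RNA, and the part of the marker level in the Myl9 result was not tested.

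**Figure D4:**
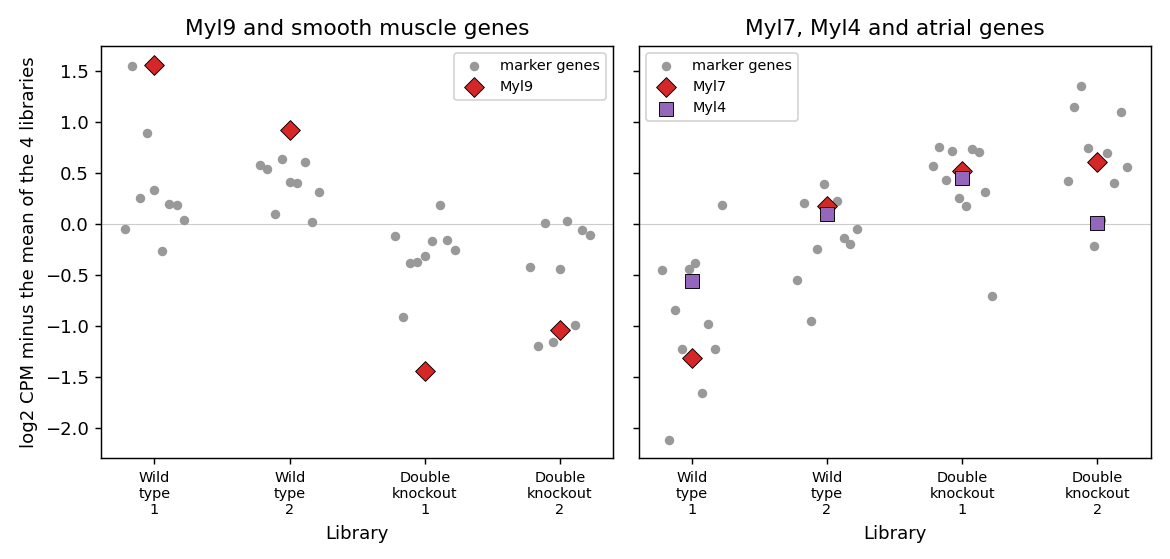
log2 CPM minus the mean of the 4 libraries for Myl9 with 9 smooth muscle marker genes (left) and for Myl7 and Myl4 with 10 atrial marker genes (right), 1 grey point per marker gene and library. Myl9 is the lowest point in double knockout library 1, and Myl7 and most atrial genes are lowest in wild type library 1.

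By the smallest root mean square difference between log2 CPM centred over the 4 libraries, among 3796 other genes with a mean of at least 50 CPM, the genes most like Myl9 were Acta2 (0.34), Frmd5 (0.64) and Ckmt2 (0.65). For Myl7 they were the potassium channel gene Kcnj3 (0.25), Gpx3 (0.29) and Dkk3 (0.33). For Mylk3 they were Rabgap1l (0.033), Lrrfip2 (0.065) and the clock repressor gene Nr1d2 (0.087). Rabgap1l was at 192 and 187 CPM for the wild type pair against 294 and 233 CPM for the knockout pair, with a fold change of 0.48 and an edgeR adjusted p of 0.193. Likeness over 4 libraries in 2 groups is a description only, and many genes with a like group difference come close.

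Around the members, the other light chain genes were scarce. Myl1, an essential chain of fast skeletal and fetal atrial muscle, was at 12.7 and 23.5 CPM for the wild type pair against 41.4 and 35.6 CPM for the knockout pair, with no overlap. Its fold change was 1.09 (SE 0.30), with an adjusted p of 0.192 by edgeR and 0.0172 by DESeq2. Mylpf, the regulatory chain of fast skeletal muscle, stayed at or under 1.30 CPM, Myl6b at or under 1.90 CPM, and Myl10 had 0 counts in all 4 libraries. Of the 3 that could be tested, 2 were lower and 1 higher, with a median of -0.49. edgeR called 0 of them and DESeq2 called 1, Myl1, beside 0.075% and 3.32% of all genes. An unadjusted edgeR p under 0.05 was found for 2 of them, as for 17.3% of all genes.

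The enzymes that add and remove phosphate on the regulatory chains, with their regulators, held no called gene. Of 20 listed genes 19 were tested, 15 with a negative and 4 with a positive fold change and a median of -0.11. edgeR and DESeq2 called 0, beside 0.075% and 3.32% of all genes. An unadjusted edgeR p under 0.05 was found for 2, beside 17.3% of all genes. The most abundant were Ppp1cb, the catalytic subunit of myosin phosphatase (1075 and 904 CPM, then 824 and 921 CPM), and the kinase gene Rock2 (401 and 379 CPM, then 389.9 and 521 CPM). Next came Camk2d, a calcium dependent kinase (425 and 349.8 CPM, then 349.7 and 372 CPM). Ppp1cb, Rock2 and Camk2d overlapped between the genotypes. Mylk, the kinase gene of smooth muscle and other cells, was at 31.6 and 38.3 CPM for the wild type pair against 25.7 and 28.6 CPM for the knockout pair.

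Among 7 heavy chain genes, 5 were lower and 2 higher, with a median of -0.27. edgeR called 0, and 1 had an unadjusted p under 0.05, beside 0.075% and 17.3% of all genes. Myh7, the beta heavy chain of fetal and slow muscle, was at 3557 and 1930.2 CPM for the wild type pair against 3298 and 5775 CPM for the knockout pair, which overlapped. The non-muscle heavy chain genes Myh10 (339 and 348 CPM, then 301 and 356 CPM) and Myh9 (239 and 227 CPM, then 166 and 209 CPM) had fold changes of -0.06 and -0.31. DESeq2 called 1 of the 7, Myh14, a low non-muscle heavy chain, beside 3.32% of all genes. Myh14 was at 1.90 and 2.69 CPM for the wild type pair against 5.92 and 4.77 CPM for the knockout pair (adjusted p = 0.0391 by DESeq2 and 0.155 by edgeR).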

How the data were processed

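Hearts were snap frozen and RNA was purified over columns and sequenced on an Illumina instrument, per the labels' protocols. The deposited values are raw counts of reads per gene, made by the authors with HTSeq on mm10, per the submitters' processing notes, which also name DESeq 1.10.1. The strand setting, aligner and annotation release were not given in the sources used. The files listed 43346 genes with 0 rows outside the gene list, and 42462 matched a symbol in GENCODE M21, which also gave positions and lengths.

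Tests used edgeR 4.0.16 in R 4.3.3 (filterByExpr, TMM, robust quasi-likelihood, no covariate, all 4 libraries), with a Benjamini-Hochberg adjusted p under 0.05 over all genes. The SE is the absolute fold change over the square root of F. Alternatives were a scaling by RLE, by upper quartiles or by totals alone, no filter, a stricter filter, DESeq2 1.42.0, limma-voom (limma 3.58.1), no robust estimation, a replicate block and each library left out. A crossed block was chosen after seeing the data. The code of the fit was run on simulated counts with the same dispersion for every gene, which does not measure its power on these data. Near-identical transcripts were found with BLAST.

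The members and lists were chosen with earlier results of these data known. Named genes are the 9 members, up to 4 genes of each related list by adjusted p and then level (1 such gene is not reported here), and 3 genes most like Myl9, Myl7 and Mylk3. Lynx1, Acta1, Sln, Myh11, Myh14, Mylk, Hbb-bt and the other muscle markers were named after their values were seen. Further marker lists held fibroblast, endothelial, macrophage and erythroid genes.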

Additional observations from a re-analysis of the deposited data

How the results depend on the processing

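With 12 genes past the threshold over all genes in the edgeR fit, other settings gave 532 (DESeq2), 1514 (no filter), 2 (replicate block), 3 (crossed block) and 2 to 2795 with 1 library left out: 2 and 3 without wild type library 1 or 2, 2795 and 1364 without double knockout library 1 or 2. With 1 library left in a genotype, the other pair alone gives the spread. Across the tested genes log2 CPM correlated at r = 0.992 within the wild type pair and at 0.978 within the knockout pair. Myl9 passed with DESeq2 (-2.51), without a filter (-2.53), with the crossed block (-2.49) and without either double knockout library, and its range with 1 library left out was -2.81 to -2.16. Mylk3 passed without a filter (0.51) and without double knockout library 2, and its range was 0.33 to 0.69. Myl2 (-0.49 to -0.11) and Myl3 (-0.45 to -0.16) passed without double knockout library 1. The sign turned with a library left out for Myl12a (-0.47 to 0.29), Myl12b (-0.018 to 0.25), Myl6 (-0.33 to 0.057) and the ratio of Myl6 to Myl3 (-0.021 to 0.36), whose differences were within their spread. Myl7 and Myl4 passed in none of the 14 settings. The cause of these shifts was not tested. RLE, upper-quartile and no composition factors, longest transcript length and 0.5 added counts turned no sign and changed no call of the 9 members or 6 ratios.

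Libraries share only a number between the genotypes: deviations of same-numbered libraries from their group means correlated at r = -0.10 across 16009 genes, which are not independent. With the replicate block Myl9 was at -2.49 (edgeR adjusted p = 0.125) and it changed no call of a member. The number of libraries, 2 in each group, limits the precision, and each member had at least 520 counts in each library.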

Other observations

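Genes with a CArG box in a RefSeq promoter window were compared with all genes that have a window. Of 183 tested genes with such a window, 56.3% had a negative fold change and the median was -0.04, beside 48.9% and 0.01 over the 11290 tested genes with any window. DESeq2 called 8 of them lower (4.37%) and 2 higher (1.09%), beside 190 lower (1.68%) and 220 higher (1.95%) over the 11290, and edgeR called 0 of the 183. Of the 2261 genes with at most 1 other letter in the box, 50.5% had a negative fold change. Of 275 genes with a MEF2 site 48.0% were negative, and of 1023 with the letters TATAAA on either strand 48.7% were. These shares are descriptions of genes that are not independent.

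Markers of some other cell types were also listed. Fibroblast genes had a median fold change of -0.13 in 8 genes (5 lower, 3 higher) and endothelial genes 0.02 in 8 (4 lower, 4 higher). Macrophage genes had 0.28 in 8 (2 lower, 6 higher) and erythroid genes -0.22 in 7 (4 lower, 3 higher). The quartiles over all genes tested were -0.21 and 0.24. edgeR called 0 in each list, beside 0.075% of all genes. At an unadjusted edgeR p under 0.05 there were 1, 1, 3 and 1, beside 17.3% of all genes. DESeq2, which called 3.32% of all genes, called 1 erythroid gene, the beta-globin gene Hbb-bt. Hbb-bt was at 42 and 26.2 CPM for the wild type pair against 6.45 and 7.77 CPM in the knockout pair.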
